A study of Mus musculus with 12 samples.

Results

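The 8 genes Hoxb2, Hoxb3, Hoxb4, Hoxb5, Hoxb6, Hoxb7, Hoxb8 and Hoxb9 were followed in mouse endometrial epithelial organoids, which are 3D cultures grown from the epithelium of the uterus. They were picked by symbol as the Hox genes that these organoids express, 8 of 26264 genes listed and 8 of 39 Hox protein genes, so their high read totals chose them and are a description here. Bulk RNA sequencing covered 12 libraries in 4 groups of 3. The groups were Esr1 knockout (KO) with estrogen, KO without estrogen, wild type (WT) with estrogen and WT without estrogen. Esr1 encodes estrogen receptor alpha, and all organoids were at passage 3. The labels name several postnatal ages without tying these libraries to any of them. They do not say which exons of Esr1 were removed or by what driver, nor whether replicates were separate animals or cultures, so p-values measure the spread between these libraries only. A note in the labels says that neither genotype responded to the hormone.

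Hox genes encode homeodomain transcription factors that give cells their position along the body axis. They lie in 4 clusters, HoxA to HoxD, and within a cluster the order of the genes matches the order of their expression along that axis. Retinoic acid switches on genes at the anterior end of a cluster first, Polycomb proteins keep silent genes closed, and trithorax proteins keep active genes open. Hox proteins choose their DNA sites together with partners of the Pbx and Meis families. In the developing female tract, Hoxa9 to Hoxa13 are the members best known for marking out oviduct, uterus, cervix and vagina. Hoxb genes are better known from the hindbrain, the trunk and blood cells.

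RefSeq promoter sequences were at hand for 2 of the 8 genes, Hoxb4 and Hoxb8, and they are shown because Hoxb4 was lower in KO libraries in both treatments while Hoxb8 passed the test in neither. Each is the 250 bases before the annotated start on build GRCm38.p6, plus strand, at chr11:96318017-96318266 for Hoxb4 and chr11:96281655-96281904 for Hoxb8. Capitals mark matches to any of the motifs searched.
Hoxb4: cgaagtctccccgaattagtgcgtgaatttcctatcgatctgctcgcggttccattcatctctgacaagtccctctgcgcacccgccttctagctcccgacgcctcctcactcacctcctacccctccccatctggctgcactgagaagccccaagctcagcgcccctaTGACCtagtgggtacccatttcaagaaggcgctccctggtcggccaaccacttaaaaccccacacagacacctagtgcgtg
Hoxb8: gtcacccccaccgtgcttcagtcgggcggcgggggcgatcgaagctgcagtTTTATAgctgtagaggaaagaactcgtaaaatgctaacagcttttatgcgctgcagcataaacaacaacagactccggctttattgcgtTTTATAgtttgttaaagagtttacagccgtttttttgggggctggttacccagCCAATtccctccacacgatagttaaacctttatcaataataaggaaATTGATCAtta
The motifs were searched on both strands. The Hoxb4 window held 1 match to the core of the estrogen response element, GGTCA, on the opposite strand, and 35.2% of 32851 promoter windows of the same length hold that motif. The Hoxb8 window held 2 matches to TATAAA on the opposite strand (12.4% of windows), 1 to the Pbx-Hox motif TGATNNAT on the opposite strand (7.68%) and 1 to CCAAT on the gene strand (33.8%). Neither window held the full estrogen response element (0.0639% of windows), the retinoic acid response elements of the DR5 type (0.0883%) and the DR2 type (0.174%), or the Meis motif TGACAG (15.9%). The G and C content was 58.0% for Hoxb4 and 44.4% for Hoxb8, against a median of 52.4% over the windows. These matches are letters in a window and show no binding.

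Nearly all Hox reads of these organoids came from the 8 genes. They held 349199 reads over the 12 libraries, 172606 in KO and 176593 in WT, or 99.89% of the reads on Hox protein genes. The least abundant of them, Hoxb9, had 11277 reads, while no Hox gene outside the 8 had more than 92. The other genes of the same cluster stood at its ends. Hoxb1, at the anterior end, had 30 reads in KO and 4 in WT, and Hoxb13, at the posterior end, had 8 reads in KO and 0 in WT. Both were too low to be tested. The 29 genes of the other clusters had 327 reads together, with 172 on HoxA, 18 on HoxC and 137 on HoxD, and 9 of them had none.

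**Figure D1:**
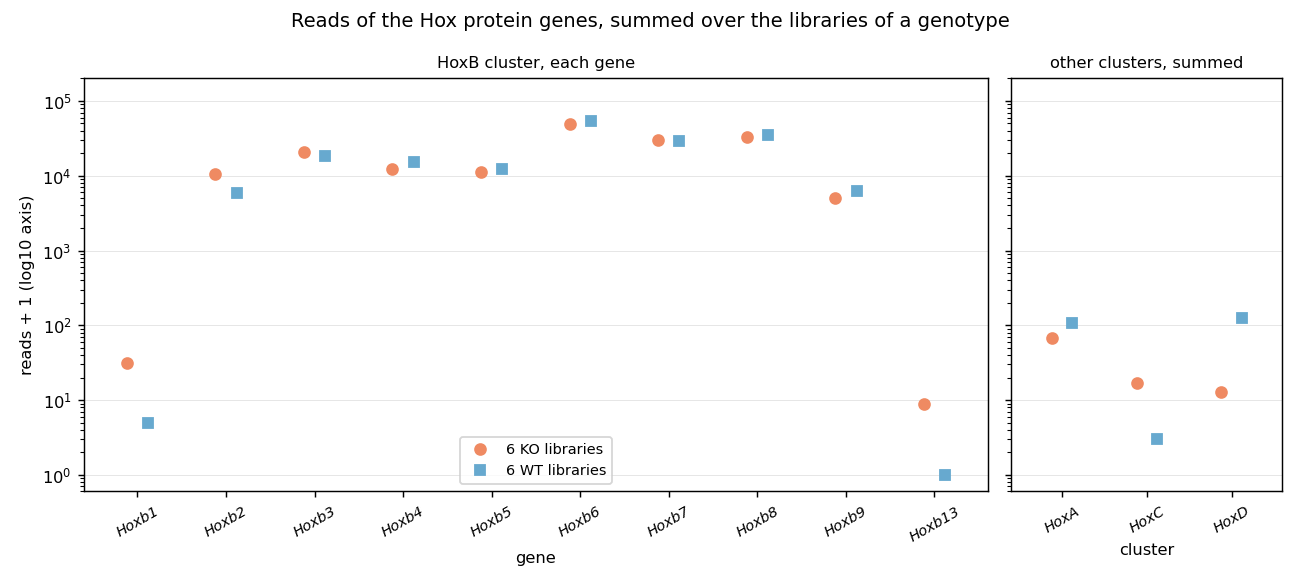
Reads of each HoxB gene (left) and of all genes of each other Hox cluster together (right), summed over the 6 KO libraries (circles) and the 6 WT libraries (squares) and plotted as reads plus 1 on a log10 axis. Hoxb2 to Hoxb9 hold 99.89% of the reads, against 172 reads on HoxA, 18 on HoxC and 137 on HoxD over the 12 libraries.

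Of those 29 genes, Hoxd8 passed the filter on low counts, with 92 reads, and did so through WT without estrogen. It had 0 reads in KO with estrogen and 4 in KO without, against 14 in WT with estrogen and 74 in WT without. Without estrogen its KO and WT libraries were apart, and with estrogen they overlapped, since 1 WT library also had 0 reads. No test is given for it, because its high group admitted it. The uterine genes Hoxa10 and Hoxa11 had 8 and 10 reads over all 12 libraries.

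The libraries held 75654191 to 108665407 counted reads. Levels are given as CPM, counts per 1e+06 counted reads, after TMM scaling, which sets libraries to each other by a trimmed mean of gene ratios. A member had between 582 and 10924 reads in a library, so counting error reached 5.86% of a level (Hoxb9), taking the mates of a pair as 1 count. Esr1 stood at 19.3, 20.3 and 19.5 CPM in KO with estrogen against 280, 330 and 344 in WT with estrogen, and at 16.5, 15.9 and 16.7 CPM in KO without estrogen against 318, 352 and 253 in WT without. Its log2 fold change was -4.01 with and -4.23 without estrogen. Markers of simple epithelium (Epcam, Cdh1, Krt8, Krt18, Krt19, Cldn4) summed to 3111 to 3907 CPM in KO and 3622 to 4443 in WT libraries, with Epcam and Krt18 lower in KO in both treatments, Krt8 higher without estrogen and Krt19 higher with it. The stromal list, which holds Hoxa10 and Hoxa11, summed to 1.29 to 4.32 CPM in KO and 2.47 to 5.07 in WT libraries. Markers of basal and squamous epithelium summed to 5599 to 14738 CPM in KO against 7.43 to 10.2 in WT. Markers of multiciliated cells summed to 569 to 1058 CPM in KO against 0.359 to 0.726 in WT. No count of tests is given for these lists, because genes such as Ccdc153, with no reads in WT, passed the filter on low counts through KO. Markers of uterine epithelium (Esr1, Pgr, Pax8, Foxa2, Wnt7a, Lifr) summed to 201 to 274 CPM in KO and 1003 to 1209 in WT libraries. That list holds Esr1 itself. Of its 6 genes, 2 were higher in KO with estrogen, and 1 of them, Foxa2, was also higher without. The other direction held 4 genes, lower in KO in both treatments. The immune list (Ptprc, Lyz2, Cd68) summed to 101 to 188 CPM in KO and 206 to 454 in WT libraries. Of its 247982 reads, 244198 were on 1 gene, and 1 of its 3 genes, Lyz2, was higher in KO. The uterine, basal, multiciliated and immune lists moved with genotype, and their part in the HoxB values was not tested. In bulk RNA, fewer cells of a type and less RNA per cell cannot be told apart.

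Per kilobase of exon, Hoxb6, Hoxb7 and Hoxb8 stood highest in every group. Hoxb6 was at 65.6 ± 5.64 CPM per kb in KO with estrogen, 61.6 ± 5.50 in KO without, 76.6 ± 4.49 in WT with and 78.6 ± 5.66 in WT without (SD, n = 3 each). Hoxb7 followed at 39.1 ± 2.67, 38.6 ± 3.62, 42.8 ± 3.53 and 41.8 ± 1.73 in the same order of groups. Hoxb8 was the next, between 21.3 and 25.0 CPM per kb as group means. Hoxb3, Hoxb4, Hoxb5 and Hoxb2 lay close together, with group means from 6.44 to 12.3 CPM per kb, and Hoxb9 was lowest at 2.98 to 5.52. The genotypes ordered the 4 close genes differently. In KO without estrogen Hoxb2 stood highest of them at 11.2 ± 0.703 and Hoxb4 lowest at 7.73 ± 0.421. In WT without estrogen Hoxb2 stood lowest at 6.44 ± 0.689, with Hoxb5 highest at 12.3 ± 1.11 and Hoxb4 at 11.2 ± 0.745. These order statements take exon lengths from build GRCm38, while the reads were counted on GRCm39.

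**Figure D2:**
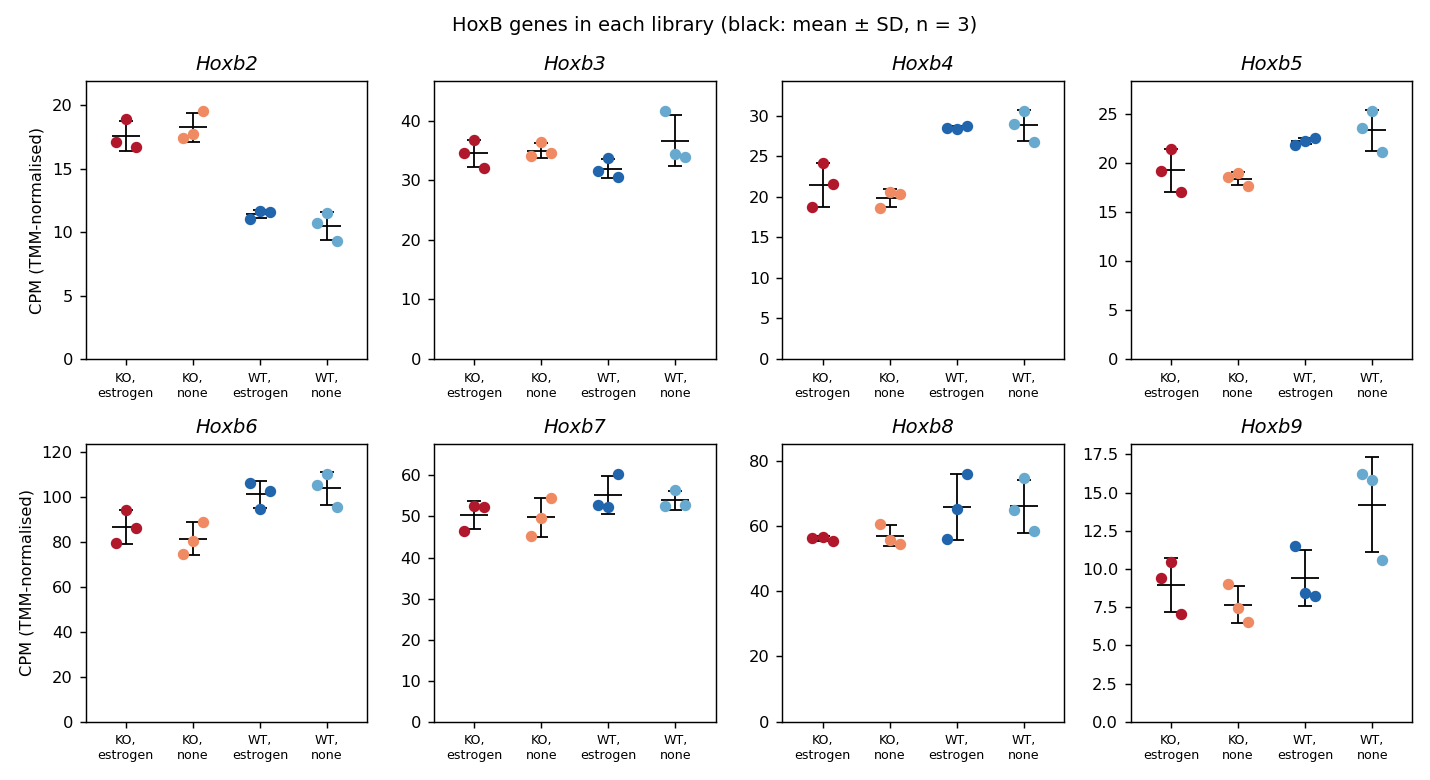
TMM-normalised CPM of each HoxB gene in each library, with the mean ± SD of each group of 3 in black and 1 panel per gene, each axis starting at 0. The KO and WT libraries do not overlap for Hoxb2, where all 6 KO libraries are above, or for Hoxb4 and Hoxb6, where all 6 KO libraries are below.

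The comparison of KO with WT asks whether these genes differ between the Esr1 genotypes. With estrogen, 3 of the 8 passed edgeR's quasi-likelihood test at an adjusted p of 0.05, 1 higher (Hoxb2) and 2 lower (Hoxb4 and Hoxb6), where 70.8% of all 16465 tested genes were called, 36.7% higher and 34.1% lower. Without estrogen 5 of 8 passed, 1 higher (Hoxb2) and 4 lower (Hoxb4, Hoxb5, Hoxb6 and Hoxb9), where 71.7% of all genes were called, 37.7% higher and 34.0% lower. In both treatments with 1 sign, 3 of 8 passed, against 64.9% of all genes. Without estrogen, 5 of 8 was near the share of all genes. These counts describe 8 genes and carry no test of their own. The changes of the 8 genes were small. None reached 2-fold, while 40.5% of all genes did with and 41.7% without estrogen. The sets are not alike, since the 8 were picked as expressed across the groups. All genes include some with few or no reads in 1 genotype. The median size of the log2 fold change was 0.22 over the 8 genes and 0.72 over all genes with estrogen, and 0.35 and 0.75 without.

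**Figure D3:**
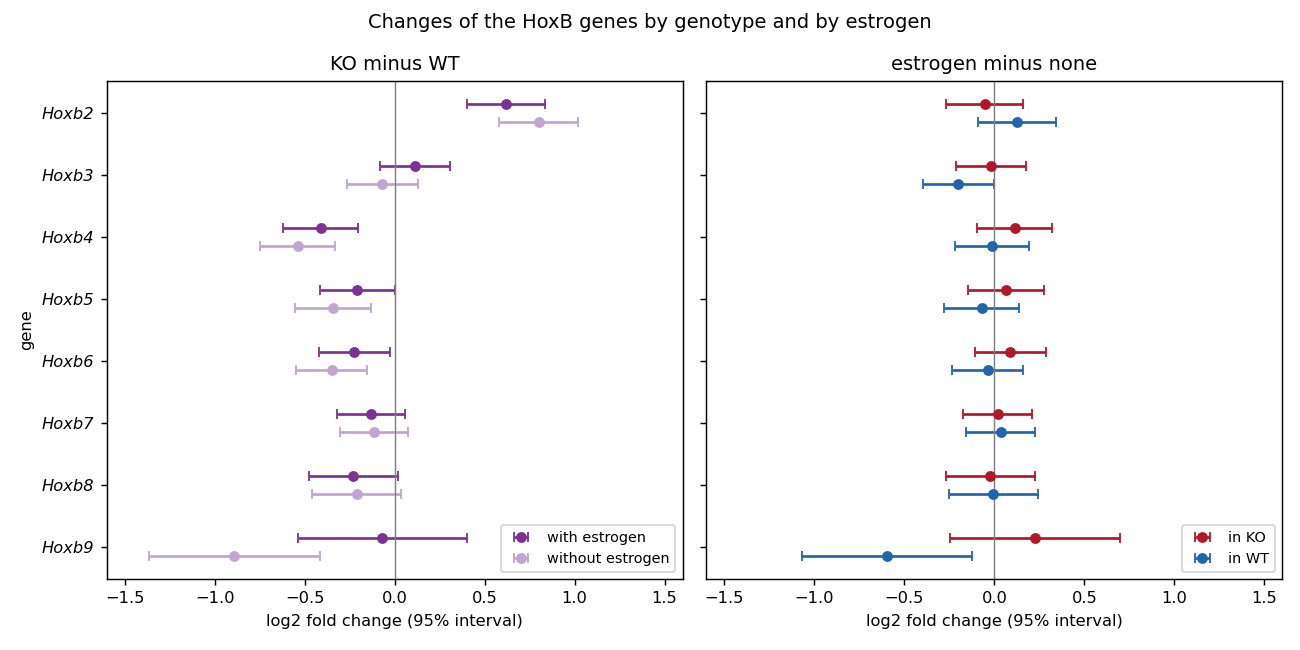
Fitted log2 fold change of each HoxB gene with its 95% interval, for KO minus WT in each treatment (left) and for estrogen minus none in each genotype (right). Hoxb2 lies above 0 in both treatments on the left and Hoxb4 and Hoxb6 below it, and on the right no gene passes after adjustment.

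Hoxb2, the most anterior of the 8 and a gene known for patterning the hindbrain, was higher in KO. It stood at 17.1, 18.9 and 16.7 CPM in KO with estrogen against 11.1, 11.6 and 11.6 in WT with estrogen. Without estrogen it stood at 17.4, 17.7 and 19.6 CPM in KO against 10.7, 11.5 and 9.27 in WT. All 6 KO libraries were above all 6 WT libraries. The fold was 1.53 with estrogen (log2 fold change 0.62, 95% interval 0.40 to 0.83; edgeR adjusted p = 1.78e-04). It was 1.74 without (0.80, 0.58 to 1.02; edgeR adjusted p = 2.40e-05). Hoxb2 was called in both treatments under all 21 alternative settings, with log2 fold changes of 0.56 to 1.02.

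Hoxb3, its neighbour, which acts with the other genes of its paralog group in the hindbrain and throat, passed in neither treatment. It stood at 34.6, 36.8 and 32.1 CPM in KO with estrogen against 31.5, 33.7 and 30.6 in WT with estrogen. Without estrogen it stood at 34.1, 36.4 and 34.5 CPM in KO against 41.7, 34.4 and 33.9 in WT. The genotypes overlapped, and the highest library was a WT library without estrogen. The log2 fold change was 0.11 with (95% interval -0.08 to 0.31; edgeR adjusted p = 0.273) and -0.07 without estrogen (-0.26 to 0.13; edgeR adjusted p = 0.509).

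Hoxb4, a gene known for enlarging the pool of blood stem cells when raised, was lower in KO. It stood at 18.7, 24.1 and 21.5 CPM in KO with estrogen against 28.4, 28.4 and 28.7 in WT with estrogen. Without estrogen it stood at 18.6, 20.6 and 20.4 CPM in KO against 29.0, 30.6 and 26.8 in WT. All 6 KO libraries were below all 6 WT libraries, and the 3 WT libraries with estrogen lay within an SD of 0.173. The log2 fold change was -0.41 with estrogen (95% interval -0.62 to -0.20; edgeR adjusted p = 0.00236) and -0.54 without (-0.75 to -0.33; edgeR adjusted p = 3.65e-04). Scaled by library size alone, it was -0.22 with estrogen and no longer passed (edgeR adjusted p = 0.0623).

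Hoxb5, known in the lung, in the nerves of the gut and in blood stem cells, was lower in KO without estrogen. There it stood at 18.5, 18.9 and 17.7 CPM in KO against 23.5, 25.3 and 21.1 in WT, and these groups were apart (log2 fold change -0.34; edgeR adjusted p = 0.00714). With estrogen it stood at 19.2, 21.4 and 17.0 CPM in KO against 21.8, 22.2 and 22.5 in WT, also apart, and missed the threshold (-0.21, 95% interval -0.42 to 0.0023; edgeR adjusted p = 0.0714). It passed there only when KO with estrogen replicate 2, its highest KO library, was left out (edgeR adjusted p = 0.0199). The call without estrogen was lost with scaling by library size alone (-0.12; edgeR adjusted p = 0.358).

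Hoxb6, the most abundant of the 8 per kilobase and known from the lateral mesoderm and limb bud, was lower in KO, narrowly so with estrogen. It stood at 79.3, 94.2 and 86.2 CPM in KO with estrogen against 106, 94.7 and 103 in WT with estrogen. Without estrogen it stood at 74.6, 80.5 and 89.1 CPM in KO against 105, 110 and 95.7 in WT. All 6 KO libraries were below all 6 WT libraries, but the nearest of them were at 94.2 and 94.7 CPM. The log2 fold change was -0.22 with estrogen (95% interval -0.42 to -0.03; edgeR adjusted p = 0.0414) and -0.35 without (-0.55 to -0.15; edgeR adjusted p = 0.00438).

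The call of Hoxb6 with estrogen was the least stable of the 8 called values. It was lost under 12 of 21 alternatives and its log2 fold change ranged from -0.40 to -0.04. Leaving out 1 library ended it for KO with estrogen replicate 1 (edgeR adjusted p = 0.144) or 3 (0.109), WT with estrogen replicate 1 (0.122) or 3 (0.0903), KO without estrogen replicate 2 (0.0545) and WT without estrogen replicate 1 (0.0551). The call without estrogen was lost in 1 of 21, scaling by library size alone (-0.13; edgeR adjusted p = 0.237).

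Hoxb7, active in the ureteric bud of the kidney, passed in neither treatment. It stood at 46.4, 52.5 and 52.3 CPM in KO with estrogen against 52.8, 52.3 and 60.5 in WT with estrogen. Without estrogen it stood at 45.1, 49.7 and 54.5 CPM in KO against 52.4, 56.5 and 52.8 in WT. The genotypes overlapped in both treatments. The log2 fold change was -0.13 with (95% interval -0.32 to 0.06; edgeR adjusted p = 0.194) and -0.11 without estrogen (-0.31 to 0.08; edgeR adjusted p = 0.254).

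Hoxb8, known for blocking the maturation of myeloid progenitors when forced on, passed in neither treatment. It stood at 56.1, 56.7 and 55.4 CPM in KO with estrogen against 56.0, 65.2 and 76.0 in WT with estrogen. Without estrogen it stood at 60.7, 55.8 and 54.6 CPM in KO against 65.0, 74.7 and 58.3 in WT. KO libraries lay close together and WT libraries spread upwards from them, with an overlap in both treatments. The log2 fold change was -0.23 with (95% interval -0.48 to 0.02; edgeR adjusted p = 0.0881) and -0.21 without estrogen (-0.46 to 0.04; edgeR adjusted p = 0.112). It passed without WT with estrogen replicate 1 (edgeR adjusted p = 0.0165) in the treated comparison, and without WT without estrogen replicate 3 (0.0436) in the untreated one.

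Hoxb9, the most posterior of the 8 and a patterning gene of the ribs and mammary gland, was lower in KO without estrogen. There it stood at 8.99, 7.45 and 6.55 CPM in KO against 16.2, 15.8 and 10.6 in WT, with the groups apart (log2 fold change -0.89, 95% interval -1.37 to -0.42; edgeR adjusted p = 0.00317). With estrogen it stood at 9.43, 10.4 and 7.03 CPM in KO against 11.5, 8.44 and 8.23 in WT, with the groups overlapping (-0.07, -0.54 to 0.40; edgeR adjusted p = 0.788). Hoxb9 was the only one of the 8 whose genotype difference had an unadjusted p below 0.05 between treatments. That difference of log2 fold changes was 0.82 (95% interval 0.16 to 1.49; unadjusted p = 0.0202 from edgeR) and did not pass over all genes (edgeR adjusted p = 0.974).

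Ordered by group mean, both KO groups stood on the same side of both WT groups for every HoxB gene but Hoxb3, above them for Hoxb2 and below them for the rest. For Hoxb2, Hoxb4, Hoxb5 and Hoxb6 the libraries of the neighbouring groups on either side of the genotype divide, KO with estrogen and WT with estrogen, did not overlap. For Hoxb3, Hoxb7, Hoxb8 and Hoxb9, each pair of neighbouring groups overlapped. The 6 KO libraries were all above the 6 WT libraries for 1 of the 8 genes (34.0% of all tested genes) and all below for 2 (31.0%), so they were apart in 3 of 8, against 65.0% of all tested genes. Within a treatment, the 3 KO and 3 WT libraries were apart for 4 of the 8 genes with estrogen (73.3% of all tested genes) and for 5 of 8 without (77.1%).

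The total of the 8 genes depended on the scaling, whereas the share of some members in it separated the genotypes. Summed TMM-normalised levels were 294.8 ± 18.0 CPM in KO with estrogen against 325.6 ± 13.1 in WT with estrogen, and 287.3 ± 9.36 in KO against 337.1 ± 26.0 in WT without (SD, n = 3 each). As a share of all counted reads, the 8 genes took 0.0293% to 0.0343% in KO libraries and 0.0288% to 0.0334% in WT libraries. Shares among the 8 genes do not depend on how libraries are scaled to each other. Hoxb2 took 5.96% ± 0.154 of the HoxB reads in KO with estrogen against 3.52% ± 0.142 in WT with estrogen, and 6.35% ± 0.215 in KO against 3.10% ± 0.0965 in WT without. Hoxb4 took 7.26% ± 0.536 against 8.76% ± 0.294 with estrogen, and 6.90% ± 0.241 against 8.54% ± 0.129 without, KO before WT. For both genes the 6 KO and 6 WT libraries were apart. The shares of the other 6 genes overlapped, including Hoxb6 at 26.8% to 30.0% in KO and 29.9% to 33.3% in WT.

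**Figure D4:**
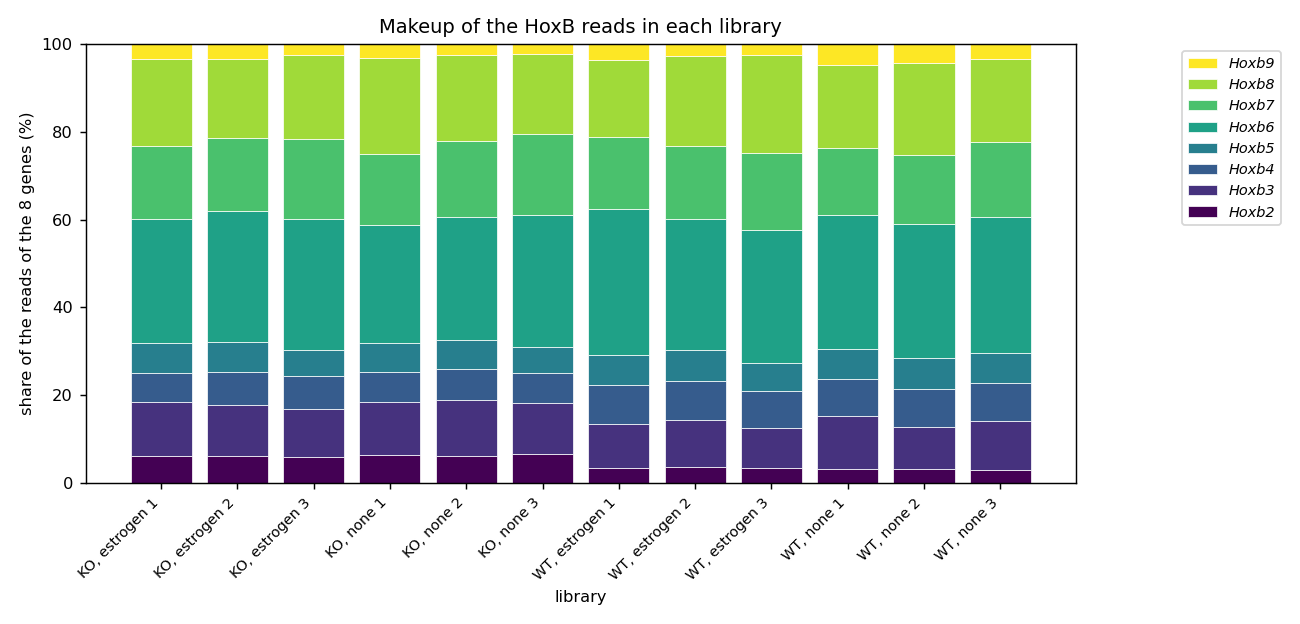
Share of each HoxB gene in the reads of the 8 genes, as stacked percent of 100 for each library, KO libraries on the left and WT libraries on the right. The lowest band, Hoxb2, is thicker in all 6 KO libraries (5.78% to 6.59%) than in all 6 WT libraries (3.01% to 3.68%).

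The ratio of reads on Hoxb2 to reads on Hoxb4 brought both differences together. It was 0.824 ± 0.0786 in KO with estrogen against 0.401 ± 0.0114 in WT with estrogen, and 0.920 ± 0.0511 in KO against 0.363 ± 0.0154 in WT without (SD, n = 3 each). The lowest KO library was at 0.774 and the highest WT library at 0.410. The ratio of Hoxb2 to Hoxb9, the opposite ends of the run, was 1.81 to 2.98 in KO and 0.657 to 1.41 in WT libraries.

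Within a group, the genes moved together more often than not. After the group means were taken off, Pearson's r of the log2 levels over the 12 libraries was positive in 25 of 28 pairs of members. Hoxb2 had a positive r with all 7 other members within groups, such as 0.68 with Hoxb4, but over the 12 libraries as they stand its r with Hoxb4 was -0.84. Hoxb4 and Hoxb6 had an r of 0.95 over the libraries and 0.82 within groups. These values are descriptions, since all pairs share the libraries and their scaling.

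The comparison of estrogen with none asks whether the hormone moved these genes. None of the 8 passed in KO or in WT, and none passed for the difference between genotypes, where edgeR called 0% of all 16465 genes in each. At an unadjusted p below 0.05, no HoxB gene stood out in KO, where 2.50% of all genes did. In WT, Hoxb3 (log2 fold change -0.20, 95% interval -0.39 to -0.0050; unadjusted p = 0.0453 from edgeR) and Hoxb9 (-0.60, -1.07 to -0.12; unadjusted p = 0.0179) did, where 5.36% of all genes did. For the difference between genotypes Hoxb9 alone did, where 4.41% of all genes did. DESeq2, limma with voom and the fit with replicate number as a block also called none of the 8, while over all genes DESeq2 called 20 in KO, 63 in WT and 25 for the difference, voom 0 in each, and the block fit 0, 7 and 4.

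The precision of these estimates differed between members. In KO the log2 fold change of estrogen over none lay between -0.06 and 0.11 for 7 of the 8 genes, and that of Hoxb9 was 0.23 (95% interval -0.25 to 0.70). For Hoxb4 the interval was -0.10 to 0.32 in KO and -0.22 to 0.19 in WT. For Hoxb7 it was -0.17 to 0.21 in KO and -0.16 to 0.23 in WT. A p above the threshold does not show that the hormone left these genes as they were.

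The noncoding RNAs within the cluster gave mixed values. Of 18 noncoding Hox RNAs in the files, 4 passed the filter on low counts, and none was called in both treatments. Hoxb3os, which runs opposite to Hoxb2 and Hoxb3, stood at 1.35 ± 0.061 CPM in KO against 1.80 ± 0.277 in WT with estrogen, and at 1.25 ± 0.185 in KO against 2.24 ± 0.502 in WT without (SD, n = 3 each). It was lower in KO without estrogen (log2 fold change -0.84; edgeR adjusted p = 0.00438). Hoxb5os, which runs opposite to Hoxb5 and Hoxb6, was higher in KO with estrogen, at 3.96 ± 0.275 against 2.93 ± 0.0672 CPM (0.43; edgeR adjusted p = 0.0210). The microRNA gene Mir10a, which lies between Hoxb4 and Hoxb5, was lower in KO without estrogen (-1.38; edgeR adjusted p = 0.0110), on 9 to 28 reads a library. Its annotated span lies inside that of Hoxb3. Strand was ignored in counting, so reads of a gene and of a transcript opposite to it cannot be told apart where they overlap.

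Some genes beside the cluster had changes far outside the range of the HoxB genes. Of the tested flanking genes, 2 were lower in both treatments (30.8% of all tested genes) and 9 were not called in both. No count of those higher in both is given, because Calcoco2 passed the filter on low counts through KO alone. The nearest tested gene beyond the posterior end, Ttll6, a tubulin polyglutamylase, stood at 46.1 ± 9.88 CPM in KO against 0.156 ± 0.0422 in WT with estrogen, and at 56.6 ± 13.8 in KO against 0.0712 ± 0.0518 in WT without. Its log2 fold changes were 8.19 and 9.59. The next, Calcoco2, an autophagy receptor, had 0 reads in all 6 WT libraries and stood at 8.10 ± 3.10 CPM in KO with estrogen and 8.87 ± 2.83 in KO without. Set against a floor of 6 reads (3 pairs) over the WT group, its level was higher by at least 363-fold with estrogen and at least 390.0-fold without it. Beyond the anterior end, Skap1, an adaptor of T cell signalling, was higher in KO (log2 fold changes 1.11 with and 1.34 without estrogen). Snx11, a sorting nexin, was also higher, at 36.8 ± 1.53 CPM in KO against 19.2 ± 1.44 in WT with estrogen and 42.9 ± 0.963 in KO against 19.0 ± 0.548 in WT without. All 8 HoxB genes lay between these neighbours with log2 fold changes from -0.89 to 0.80.

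**Figure D5:**
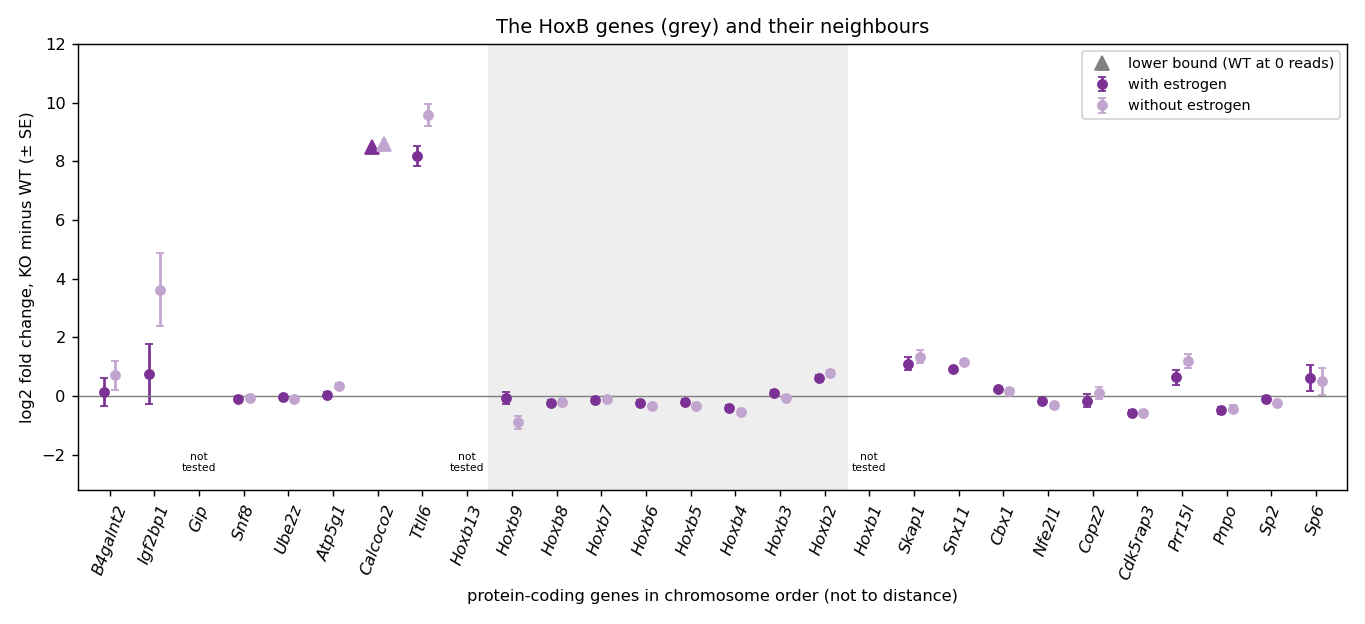
Fitted log2 fold change, KO minus WT, ± SE for the protein-coding genes around the cluster in chromosome order, with and without estrogen, and triangles at the lower bound for Calcoco2, which had 0 reads in WT. The HoxB genes in grey lie between -0.89 and 0.80, while Ttll6 lies at 8.19 and 9.59.

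Genes for partners of the HoxB proteins went both ways. Of 12 tested genes of the TALE class, 6 were higher in KO in both treatments (Pbx3, Pbx4, Meis1, Meis2, Pknox1 and Tgif2), 3 lower, among them Meis3 and Pknox2, and 3 not called in both. The shares over all tested genes were 34.1% higher and 30.8% lower. Meis1, which binds DNA beside Hox proteins, stood at 92.3 ± 9.63 CPM in KO against 27.7 ± 1.70 in WT with estrogen, and at 96.2 ± 5.83 in KO against 25.8 ± 2.50 in WT without. Pbx3 stood at 14.0 ± 2.20 against 2.36 ± 0.366 with estrogen, and at 14.8 ± 1.05 against 2.49 ± 0.195 without, KO before WT. Pknox2 was lower in KO, at 0.610 ± 0.103 against 23.3 ± 7.46 CPM with estrogen and at 0.175 ± 0.0917 against 14.4 ± 6.35 without.

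Known regulators of Hox clusters were also mixed. The caudal factors Cdx1 and Cdx4 had no reads. Among 6 tested direct regulators, 4 were higher in KO in both treatments, such as Gmnn, a replication inhibitor that also binds Hox proteins (45.6 ± 11.2 against 9.21 ± 1.34 CPM without estrogen, KO before WT), and 1 was lower. Over all tested genes, 34.1% were higher and 30.8% lower in both treatments. Retinoid genes went both ways. No count of calls is given for them, because genes such as Stra6, with 2 to 24 reads in a WT library, passed the filter on low counts through KO. Aldh1a2, which makes retinoic acid, was lower in KO, at 1.01 ± 0.325 against 1786 ± 327 CPM with estrogen and 0.635 ± 0.160 against 2110 ± 227 CPM without. Aldh1a3, which also makes it, was higher, at 78.8 ± 28.4 against 0.504 ± 0.474 CPM with estrogen. The receptors Rarg and Rxra were higher, with log2 fold changes of 1.13 and 1.08 with estrogen, and Rara and Rarb passed in neither treatment. Cyp26a1, which breaks retinoic acid down, passed in neither treatment either.

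Of 31 tested Polycomb genes, 5 were higher in KO, 8 lower and 18 not called in both treatments. Bmi1, a subunit of the repressive complex 1, was lower, at 18.4 ± 0.154 CPM in KO against 35.1 ± 3.96 in WT with estrogen and 18.4 ± 0.354 against 34.4 ± 1.22 without. Ezh2, the methyltransferase of the repressive complex 2, was higher, with log2 fold changes of 0.68 with and 0.80 without estrogen. Of 22 tested trithorax genes and demethylases, 6 were higher and 8 lower. Men1, which joins the MLL complexes that act on Hox genes, was lower, at 29.4 ± 2.40 CPM in KO against 51.5 ± 1.29 in WT with estrogen. Psip1, another partner of MLL, was higher, at 57.6 ± 2.49 against 33.2 ± 1.39 CPM. For comparison, 34.1% of all tested genes were higher and 30.8% lower in KO in both treatments.

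The genes whose levels followed each HoxB gene most closely over the 12 libraries were named from 12740 genes outside the Hox clusters. For Hoxb2 these were Fam161a and Aldh5a1, each with a Pearson's r of 0.99. For Hoxb4 they were Dpy19l4 and Tmem170, also at 0.99. The closest gene was Zfp341 for Hoxb3 (0.89), Wdr59 for Hoxb5 (0.97), Gm15408 for Hoxb6 (0.96), Mmaa for Hoxb7 (0.94), Cyb5b for Hoxb8 (0.94) and Zswim1 for Hoxb9 (0.90). Once group means were taken off, r was 0.76 for Fam161a and 0.86 for Aldh5a1 with Hoxb2, and 0.93 for each of Dpy19l4 and Tmem170 with Hoxb4. Each was the highest of many candidates and carries no test.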

How the data were processed

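Bulk RNA-seq of 12 organoid libraries, 3 in each of 4 groups, was used, and the members and gene lists were chosen with earlier results of these data known. The deposited files hold raw counts of reads per gene. Per the file headers, the authors counted exons of RefSeq genes with featureCounts 2.0.0, each mate on its own, without strand, leaving out reads that mapped to several places or genes. The submitters' processing notes name build GRCm39, STAR 2.7.10b, featureCounts 2.0.3, Trim Galore 0.6.6 and FastQC 0.11.7. Dropped reads lower overlapping and near-identical genes.

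Of 26264 genes, 5461 had no read, and 16465 passed filterByExpr (minimum count 10, minimum total 15) in edgeR 4.0.16 under R 4.3.3. TMM-scaled counts were fitted by robust quasi-likelihood with 4 groups sharing the spread. Tests were two-sided, with Benjamini-Hochberg adjustment over all tested genes and a threshold of 0.05. The steps were also run on simulated counts in which few genes changed. Most genes were called between the genotypes here, so that run does not test the scaling of these libraries. No pair of replicates looked like repeat deposits of 1 library (chi-square over its degrees of freedom 48.8 to 321). Intervals of 95% are from the fit. The floor of 6 reads (3 pairs) over a group allows for counting error alone, and the files record no molecular identifiers.

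Libraries of the same replicate number deviated together across genes in KO (r = 0.57, 0.50 and 0.41) and not in WT (-0.16, -0.16 and -0.39), a hint from the data, since the labels give no pairing. Alternatives were DESeq2 1.42.0, limma 3.58.1 with voom, other scalings, filters and fits, a replicate block within genotype, and leaving out each library. CPM per kb uses GENCODE M21 exons on GRCm38, where all 8 genes were found. The text names every HoxB gene, Hoxd8, the called genes with the largest mean change of each list (up to 4), further list members as examples, chosen after their values were seen, and the 2 genes most correlated with each member (log2 of CPM + 0.1). Some genes that this rule picks are not reported here.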

Additional observations from a re-analysis of the deposited data

How the results depend on the processing

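Scaling by library size alone, which moved the median log2 fold change of all genes to 0.21 with and 0.27 without estrogen (0.02 and 0.04 with TMM), was the alternative that changed the counts of HoxB genes called by more than 1.5 times. It called 3 in place of 5 without estrogen and 1, Hoxb2, in place of 3 in both treatments. It also called Hoxb3 as higher in KO with estrogen (0.30; edgeR adjusted p = 0.0164), and it turned the uncalled values of Hoxb7 (0.05 with and 0.11 without estrogen), of Hoxb3 (0.16) and Hoxb8 (0.02) without estrogen, and of Hoxb9 (0.12) with estrogen above 0. Hoxb6 with estrogen also lost its call with DESeq2's size factors (edgeR adjusted p = 0.122), with DESeq2 (0.139), with no count filter (0.0509), with at least 1 CPM (0.0557) and with only the groups compared (0.0635). With replicate number within genotype as a replicate block, the counts were 3 with estrogen, 5 without, 3 in both treatments and 0 for each estrogen comparison and the interaction, and the block changed no call of a HoxB gene. Leaving out each of the 12 libraries kept every count within 1.5 times of its value. Over the single genes and comparisons, 471 of the values with a library left out stayed on their side of the threshold, 6 lost a call and 3 gained one, and 342, 9 and 1 did so under the other settings. No called value changed its sign. Depth does not limit these genes, with at least 582 reads a library, but 3 libraries a group limit the precision, and the promoters of the other 6 genes and all HoxB proteins were not analysed here.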
